A study of Mus musculus with 4 samples.

Results

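Of the 13265 genes in the deposited single-cell RNA sequencing (scRNA-seq) table, 5 chemokine receptor genes linked to T cell homing to the gut were followed: *Ccr9*, *Cxcr6*, *Cxcr3*, *Cxcr4* and *Ccr2*. They were chosen by name, with earlier results of these data known, and all 5 were present in the table. The cells were YFP+CD4+ T cells taken by sorting from small intestines of mice aged 7 to 8 months. All mice carried *Il17a-cre*, so that recombination, including that of the YFP reporter, took place in cells with past or present *Il17a* expression. Such cells had lost *Tgfbr2* through floxed alleles in TGFβR-KO mice. In TGFβR-CA mice they expressed a constitutively active form of *Tgfbr1* that a floxed stop cassette had held off. TGFβR-WT mice carried the driver without either allele. Cells without a history of *Il17a* expression were outside the sort. TGFβR-KO and TGFβR-CA were each 1 sample and TGFβR-WT was 2 samples.

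Chemokine receptors are G-protein-coupled receptors that steer leukocytes along gradients of chemokines. CCR9 binds CCL25, which the epithelium of the small intestine makes, and CXCR6 binds CXCL16, found on epithelial and antigen-presenting cells. CXCR3 binds the interferon-γ-induced ligands CXCL9 and CXCL10 and is a feature of TH1 cells, CXCR4 binds CXCL12 of stromal cells and of the germinal center dark zone, and CCR2 binds CCL2 at sites of inflammation.

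Over all cells, *Cxcr6* and *Cxcr3* were 2.22 and 3.41 times as high in TGFβR-KO as in TGFβR-WT. With the makeup of the 8 cell identities assigned by the authors held equal, they were 1.64 and 1.78 times as high. Over the 5 identities with at least 20 cells in every condition, they were 1.44 and 2.56 times as high. *Cxcr4* was 2.65 times as high in TGFβR-WT as in TGFβR-KO cells, and *Ccr9* was found in more TGFβR-KO cells at a similar level. In Activated and Pre-tumorigenic cells, however, 73.3% and 59.1% of TGFβR-KO cells carried *Ccr9*, against 82.1% and 79.7% of TGFβR-WT cells. Compared with TGFβR-CA cells, TGFβR-WT cells held 2.11 times as much *Cxcr6* and 1.69 times as much *Ccr2*. The *Ccr2* ratio rests on few counted molecules (UMIs), 30 in TGFβR-CA and 43 in TGFβR-WT. *Ccr2* passed the filter used below only through TGFβR-KO cells. The difference in *Cxcr6* and *Cxcr3* between TGFβR-KO and TGFβR-WT was present in the follicular helper identities, where both receptors were low in TGFβR-WT.

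The 5 genes lie at 3 places in the genome (positions from GENCODE on GRCm38, equal to mm10). *Ccr9* (ENSMUSG00000029530.16, chr9:123678439-123784330, + strand), *Cxcr6* (ENSMUSG00000048521.8, chr9:123806475-123811760, + strand) and *Ccr2* (ENSMUSG00000049103.14, chr9:124101950-124113557, + strand) belong to a cluster of chemokine receptor genes on chromosome 9. *Cxcr6* lies within *Fyco1*, which is on the other strand, and the annotated span of *Ccr9* overlaps *Lztfl1*, also on the other strand. *Cxcr3* (ENSMUSG00000050232.6, chrX:101731535-101734269, − strand) is on the X chromosome, and *Cxcr4* (ENSMUSG00000045382.6, chr1:128588199-128592293, − strand) is on chromosome 1.

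Promoter sequence is shown for the 3 receptors that passed the fold used below in TGFβR-KO. The letters come from RefSeq on GRCm38.p6, 5′ to 3′ on the strand of the gene. For *Cxcr6* the stretch covers chr9:123806227-123806474 on the + strand, directly upstream of the annotated gene. For *Cxcr3* it covers 30 bases at chrX:101734240-101734269 on the − strand, which GENCODE places at the 5′ end of the first exon and RefSeq upstream of the gene. For *Cxcr4* it covers chr1:128592300-128592549 on the − strand. Capitals mark ACCACA, the reverse complement of the RUNX core TGTGGT, in *Cxcr6* and *Cxcr3*, and the TATA box TATAAA in *Cxcr4*, where matches on both strands overlap.
Cxcr6: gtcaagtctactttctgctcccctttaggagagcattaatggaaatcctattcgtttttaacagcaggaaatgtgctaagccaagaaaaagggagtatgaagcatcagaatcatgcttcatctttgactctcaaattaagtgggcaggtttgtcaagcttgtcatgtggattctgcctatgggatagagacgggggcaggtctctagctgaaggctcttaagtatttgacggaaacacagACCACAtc
Cxcr3: tgtattcacctgACCACAggcgtggcagaa
Cxcr4: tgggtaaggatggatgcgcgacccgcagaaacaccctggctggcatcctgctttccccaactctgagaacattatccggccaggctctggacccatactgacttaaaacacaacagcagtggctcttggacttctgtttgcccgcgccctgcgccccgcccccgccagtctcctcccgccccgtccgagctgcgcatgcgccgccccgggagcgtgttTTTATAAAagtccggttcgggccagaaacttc
Searched on both strands over the 250 bases upstream of the RefSeq start, the RUNX core TGTGGT was present at *Cxcr6* and *Cxcr3* and not matched at *Ccr9*, *Cxcr4* or *Ccr2*, and 14.2% of 27025 promoters of the same length held it. TATAAA was matched at *Cxcr4* alone of the 5 and in 13.0% of all promoters. The match at *Cxcr6* ran from 10 bases and that at *Cxcr3* from 110 bases before the RefSeq start. Of the other motifs searched, the T-box core AGGTGTG, the AP-1 site TGANTCA, the retinoic acid receptor half-site AGGTCA and the SMAD box CAGACA had no match in any of the 5 windows, and they were held by 5.14%, 6.87%, 13.8% and 17.1% of promoters. CCNCCC (KLF and SP factors) was matched at *Ccr9* and *Cxcr4* and in 63.9% of promoters, and GGAAA (NFAT) at *Cxcr6*, *Cxcr4* and *Ccr2* and in 55.6%. A match describes letters and not binding.

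The table held 2975 TGFβR-KO, 1098 TGFβR-CA and 1007 TGFβR-WT cells. Names of the TGFβR-WT cells ended in 2 suffixes, here called the larger set (709 cells) and the smaller set (298 cells), which could not be assigned to the 2 samples. The values are UMI numbers (UMIs mark single captured RNA molecules) that the authors had corrected to a common depth, with medians of 3440 to 3984.5 per cell over the 4 sets. Of all cell barcodes, 16 occurred in more than 1 set, in 32 cells, and 14 of them were found in TGFβR-KO and in the larger set of TGFβR-WT. *Tgfbr2* was at 1.48 corrected UMIs per 10000 in TGFβR-KO and 1.72 to 1.78 in the other sets, so its level did not mark the deletion. *Tgfbr1*, the gene of the TGFβR-CA allele, was at 0.792 in TGFβR-CA (19.7% of cells), 2.79 in the smaller TGFβR-WT set (58.1%), 0.367 in the larger set (11.7%) and 0.219 in TGFβR-KO (7.76%). TGFβR-CA thus lay between the TGFβR-WT sets, which stood far apart, so the level of *Tgfbr1* did not mark the allele either. *Xist*, made from the inactive X chromosome and named after its values were seen, was at 0 in TGFβR-KO and the larger set, at 4.59 in TGFβR-CA and at 9.86 in the smaller set. The sets thus paired TGFβR-KO with the larger and TGFβR-CA with the smaller TGFβR-WT set by *Xist*. Whether what set *Xist* apart played a part in the differences below was not tested. According to the methods, TGFβR-KO and TGFβR-CA were sequenced in different batches, each with TGFβR-WT cells, so that batch and genotype cannot be told apart between them. CD4 T cell markers (5 of 5 in the table) summed to 64.2 per 10000 in TGFβR-KO and 78.4 to 80.9 in the other sets. Markers of other cells were low: in the 4 sets they summed to 0.0199 to 0.0453 per 10000 for CD8 T cells, 0.0157 to 0.181 for γδ T cells, 0.136 to 0.283 for epithelial cells, 0.198 to 0.703 for B or plasma cells and 0.0399 to 0.0525 for myeloid cells.

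The first question was how each receptor differed between the conditions over all cells. A level is the sum of a gene's corrected UMIs in a group of cells per 10000 corrected UMIs of that group. With 1 sample each for TGFβR-KO and TGFβR-CA no test between conditions was possible. A gene was called higher or lower where its level was at least 1.5 times apart, in the same direction, from both the larger and the smaller TGFβR-WT set. By this rule 2.94% of 7490 genes with at least 200 corrected UMIs were called higher in TGFβR-KO and 5.43% lower. In TGFβR-CA 1.26% were called higher and 2.75% lower. The median log2 ratio to TGFβR-WT over these genes was -0.17 for TGFβR-KO and -0.11 for TGFβR-CA. Of the 5 receptors, 2 were called higher and 1 lower in TGFβR-KO, and 0 higher and 2 lower in TGFβR-CA. Of the 4 that passed the filter without TGFβR-KO cells, 2 were higher and 1 lower in TGFβR-KO, and 0 higher and 1 lower in TGFβR-CA. Over all genes, 5256 passed the filter without TGFβR-KO cells. Of these, 95 were higher and 296 lower in TGFβR-KO, and 42 higher and 92 lower in TGFβR-CA.

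*Cxcr6* was at 5.86 in TGFβR-KO, 2.68 in the larger TGFβR-WT set, 2.55 in the smaller set and 1.25 in TGFβR-CA. The TGFβR-WT sets lay close together, with TGFβR-KO 2.19 and 2.30 times as high and TGFβR-CA below both. At least 1 UMI of *Cxcr6* was found in 65.0% of TGFβR-KO cells (95% Clopper-Pearson interval 63.2 to 66.7), 31.1% of TGFβR-WT cells (28.2 to 34.0) and 18.9% of TGFβR-CA cells (16.7 to 21.4). This interval and all others below cover counting error only, not the difference between mice. *Cxcr6* was thus the receptor whose level was called in opposite directions in the 2 conditions.

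*Cxcr3* was at 1.30 in TGFβR-KO, 0.347 in the larger set, 0.453 in the smaller set and 0.260 in TGFβR-CA. TGFβR-KO was 3.75 and 2.87 times as high as the 2 TGFβR-WT sets, the larger ratio being that to the set that matched it in *Xist*. The share of cells with *Cxcr3* was 30.3% in TGFβR-KO (28.6 to 32.0), 9.24% in TGFβR-WT cells (7.52 to 11.2) and 7.01% in TGFβR-CA cells (5.57 to 8.69). The difference therefore lay mainly in the number of cells, since a cell with *Cxcr3* held on average 1.66 UMIs of it in TGFβR-KO and 1.53 in TGFβR-WT. TGFβR-CA was below both TGFβR-WT sets, which were 1.33 and 1.74 times as high, without passing the fold.

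*Cxcr4* was at 0.422 in TGFβR-KO, 0.954 in the larger set, 1.46 in the smaller set and 0.897 in TGFβR-CA. Levels in the TGFβR-WT sets were 2.26 and 3.45 times that in TGFβR-KO. TGFβR-CA was close to the larger set and below the smaller one. The share of cells with *Cxcr4* was 10.9% in TGFβR-KO (9.79 to 12.1), 23.7% in TGFβR-WT cells (21.1 to 26.5) and 24.6% in TGFβR-CA cells (22.1 to 27.2).

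*Ccr9* was at 3.16 in TGFβR-KO, 2.86 in the larger set, 4.73 in the smaller set and 2.58 in TGFβR-CA. TGFβR-KO lay between the TGFβR-WT sets, 1.11 times the larger and 0.669 times the smaller, so its direction depended on the set and it was not called. The share of cells with *Ccr9* was nevertheless 36.8% in TGFβR-KO (35.0 to 38.5), above the 23.6% of TGFβR-WT (21.0 to 26.4) and the 18.1% of TGFβR-CA (15.9 to 20.5). More cells carried *Ccr9* in TGFβR-KO with less of it in each: a cell with *Ccr9* held on average 3.32 UMIs of it in TGFβR-KO, 5.42 in TGFβR-WT cells and 5.68 in TGFβR-CA cells. *Ccr9* was thus the receptor for which level and share of cells parted.

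*Ccr2* was sparse, with levels of 0.191 in TGFβR-KO, 0.108 in the larger set, 0.132 in the smaller set and 0.0684 in TGFβR-CA. It was found in 6.52% of TGFβR-KO (5.66 to 7.47), 3.77% of TGFβR-WT (2.68 to 5.14) and 2.28% of TGFβR-CA cells (1.48 to 3.34). TGFβR-KO was 1.77 times the larger and 1.45 times the smaller set and missed the fold, while both TGFβR-WT sets were above TGFβR-CA by 1.57 and 1.93 times. With every cell thinned to 2900 corrected UMIs, the shares of cells fell for all 5 receptors. They kept their order over the 3 conditions for 4 receptors. For *Cxcr6* they became 59.5%, 28.0% and 16.1% in TGFβR-KO, TGFβR-WT and TGFβR-CA, and for *Cxcr3* 25.1%, 7.65% and 5.19%. For *Cxcr4* they became 8.77%, 20.4% and 19.6%, with TGFβR-WT now above TGFβR-CA.

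**Figure D1:**
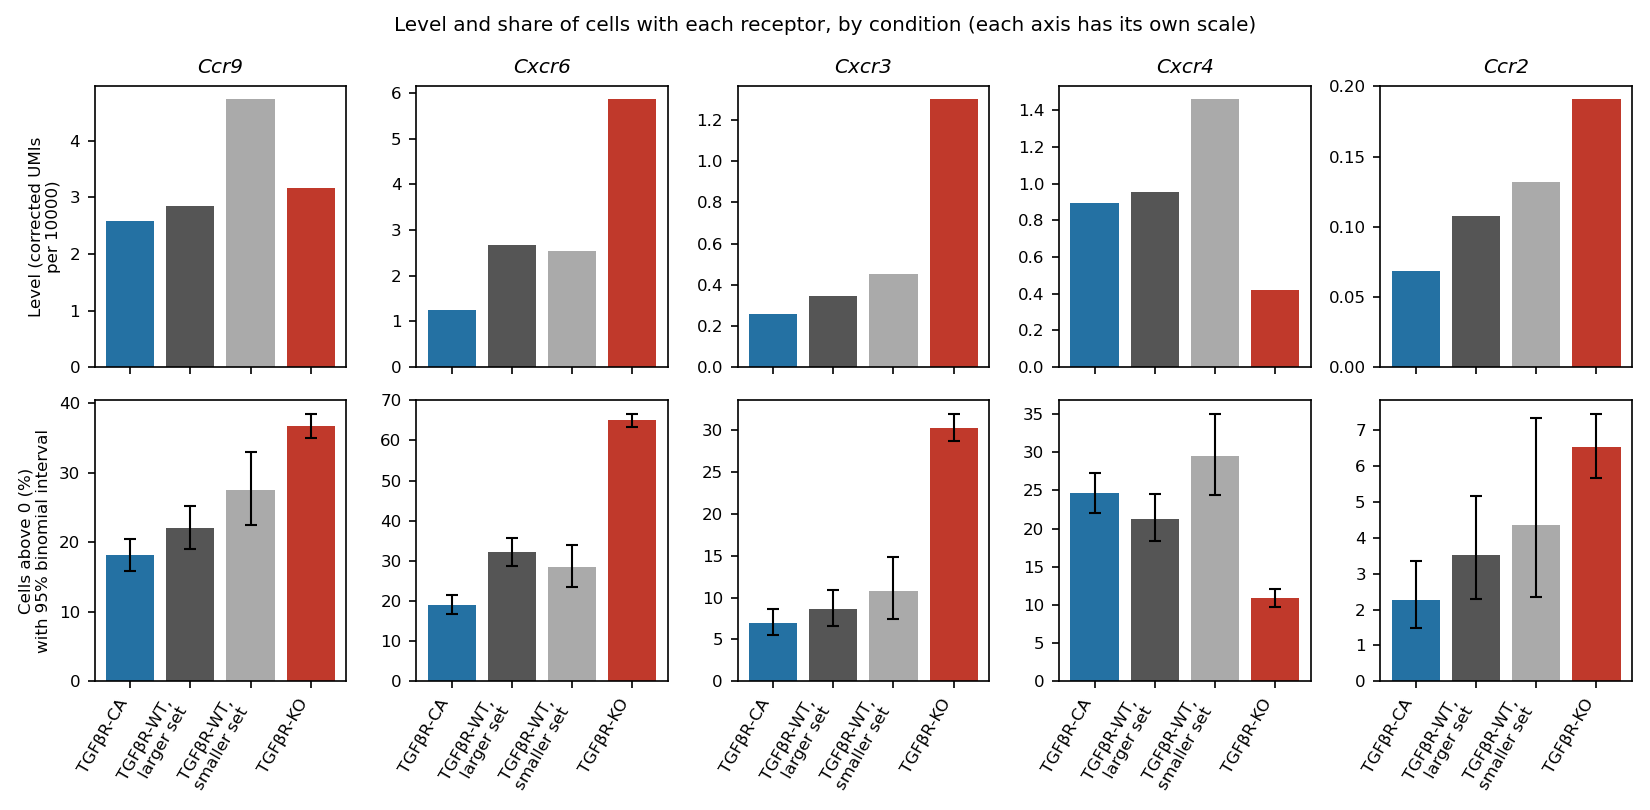
Level (upper row, corrected UMIs per 10000) and share of cells above 0 (lower row, percent, error bars are 95% Clopper-Pearson intervals) of each receptor in TGFβR-CA, the 2 sets of TGFβR-WT cells and TGFβR-KO, over all cells. *Cxcr6* at 5.86 and *Cxcr3* at 1.30 stand above both TGFβR-WT sets in TGFβR-KO, *Cxcr4* at 0.422 stands below them, and *Ccr9* lies between them in level but above them in share.

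The authors had assigned each cell to 1 of 8 identities. The conditions held them in different proportions, so levels were compared within identities next. The identities CTL and Tumorigenic were almost entirely TGFβR-KO cells: CTL held 321 TGFβR-KO, 13 TGFβR-WT and 3 TGFβR-CA cells, and Tumorigenic 361, 5 and 2. Because the clustering had used the expression of these cells, differences between identities describe them and were not tested. Within an identity, the fold call was made for Activated, Pre-tumorigenic, GC-TFH (germinal center follicular helper) and TR-TFH (tissue-resident follicular helper) cells, which held at least 20 cells in every set, over genes with at least 50 corrected UMIs in the cells compared.

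Among groups of at least 20 cells, the level of *Ccr9* was highest in Activated and then Pre-tumorigenic cells in every condition. The paper lists *Ccr9* and *Cxcr6* among the genes of its activated cluster, so their high level in Activated cells repeats that description. TGFβR-CA, TGFβR-WT and TGFβR-KO were at 14.1, 15.5 and 10.2 in Activated cells and at 7.08, 11.8 and 4.25 in Pre-tumorigenic cells. TR-TFH cells were at 0.343, 0.223 and 0.337, and GC-TFH cells at 0.205, 0.228 and 0.585. Activated and Pre-tumorigenic cells were thus far above both follicular helper identities in every condition. Within each of these pairs the identities lay closer together in pooled TGFβR-WT than TGFβR-KO and pooled TGFβR-WT did in Pre-tumorigenic or GC-TFH cells. In the larger set alone this did not hold against Pre-tumorigenic cells. There Activated cells were at 14.2 and Pre-tumorigenic cells at 7.25, 1.71 times the level of TGFβR-KO. Of TGFβR-WT cells, 82.1% of Activated (73.9 to 88.5), 79.7% of Pre-tumorigenic (69.2 to 88.0) and 36.0% of Migratory cells (26.1 to 46.8) carried *Ccr9*, against 3.70% of TR-TFH cells (2.17 to 5.85). That last share is the lowest of *Ccr9* in TGFβR-WT. What free RNA added to these shares was not tested. In TGFβR-KO the order began with Activated at 73.3% (68.0 to 78.1), Pre-tumorigenic at 59.1% (52.5 to 65.5), Cycling at 49.4% (37.8 to 61.0), Migratory at 45.6% (42.2 to 49.1) and CTL at 41.4% (36.0 to 47.0). Activated cells stood apart from the next identity, and the intervals of the following 4 overlapped from one to the next. Tumorigenic cells followed at 28.0% (23.4 to 32.9), then GC-TFH at 12.3% (8.87 to 16.4) and TR-TFH at 6.74% (4.74 to 9.25).

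The cells that carried *Ccr9* shifted with the makeup of the conditions. Activated cells made up 52.8% of the *Ccr9*-positive cells of TGFβR-CA and 40.3% of those of TGFβR-WT but 21.3% of those of TGFβR-KO, where Migratory cells were the largest group with 34.6%. In Pre-tumorigenic cells the TGFβR-WT sets were at 7.25 (larger, 27 cells) and 13.8 (smaller, 52 cells), both above TGFβR-KO. The share of these cells with *Ccr9* in the larger set was 74.1% (53.7 to 88.9), an interval that overlaps that of TGFβR-KO. In GC-TFH cells the larger and smaller sets were at levels of 0.218 and 0.248, both below TGFβR-KO.

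*Cxcr6* was also highest in Activated cells, where TGFβR-KO was at 13.1, TGFβR-WT at 10.2 and TGFβR-CA at 6.40. In TGFβR-KO it then spread over every identity: CTL cells were at 8.48, Tumorigenic at 7.42, Migratory at 5.74, Pre-tumorigenic at 4.86, Cycling at 3.93, GC-TFH at 2.74 and TR-TFH at 1.43. Of Tumorigenic cells 79.5% carried it (74.96 to 83.5), as did 81.9% of CTL cells (77.3 to 86.0) and 76.1% of Migratory cells (73.0 to 78.9), whose intervals overlap. The follicular helper identities showed the widest ratios of TGFβR-KO to TGFβR-WT among the 5 identities with at least 20 cells in every condition, 3.73 in GC-TFH and 3.49 in TR-TFH cells. *Cxcr6* was found in 38.4% of the GC-TFH cells of TGFβR-KO (33.0 to 44.0), 14.1% of those of TGFβR-WT (9.56 to 19.7) and 9.13% of those of TGFβR-CA (5.93 to 13.3). In TR-TFH cells the shares were 27.4% (23.6 to 31.4), 9.78% (7.23 to 12.9) and 4.50% (2.93 to 6.57). The same order of the 3 conditions was seen in Migratory cells, at 76.1%, 58.4% and 30.8%, but not in Pre-tumorigenic cells, where TGFβR-WT was highest at 72.2% (60.9 to 81.7) with TGFβR-KO at 65.7% (59.1 to 71.8).

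Among groups of at least 20 cells, *Cxcr3* was highest in CTL cells of TGFβR-KO, at 2.98, with 56.4% of these cells positive (50.8 to 61.9). Of the 13 CTL cells of TGFβR-WT, 69.2% were positive (38.6 to 90.9). The next TGFβR-KO identity was Migratory at 1.44 and 35.4% (32.1 to 38.7). The other 6 identities of TGFβR-KO lay between 18.3% in TR-TFH (15.1 to 21.9) and 29.9% in Cycling cells (19.97 to 41.4). In TGFβR-WT the highest share among identities of at least 20 cells was 17.8% and the lowest 4.35% in TR-TFH cells (2.68 to 6.64). TR-TFH cells showed the widest ratio of these 5 identities, with *Cxcr3* at 0.768 in TGFβR-KO and at 0.152 and 0.131 in the larger and smaller TGFβR-WT sets, that is 5.07 and 5.86 times as high. In Pre-tumorigenic cells, by contrast, TGFβR-KO at 0.953 lay between the larger set at 0.439 and the smaller set at 1.09.

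*Cxcr4* had another distribution, with its peak, among groups of at least 20 cells, in GC-TFH cells. TGFβR-WT was at 2.33 there, TGFβR-CA at 1.24 and TGFβR-KO at 1.19, and 39.7% (32.8 to 46.9), 33.8% (28.1 to 39.9) and 30.2% (25.2 to 35.6) of cells were positive. In TR-TFH cells the share was 24.1% in TGFβR-WT (20.3 to 28.3), 23.4% in TGFβR-CA (19.9 to 27.1) and 11.9% in TGFβR-KO (9.28 to 15.1). Follicular helper cells apart, *Cxcr4* was found in TGFβR-KO in 20.8% of Cycling (12.4 to 31.5), 18.6% of Tumorigenic (14.7 to 23.0) and 15.7% of Pre-tumorigenic cells (11.2 to 21.0), whose intervals overlap, and was almost absent from CTL cells, where 1 of 321 cells held 1 UMI, a share of 0.312% (0.00789 to 1.72) at a median of 3643 UMIs per cell. Migratory cells of TGFβR-KO were also low, at 2.29% (1.38 to 3.55), against 12.4% in TGFβR-WT (6.33 to 21.0) and 17.3% in TGFβR-CA (8.23 to 30.3). CTL and Tumorigenic cells of TGFβR-KO, with similar shares of *Cxcr6*, thus differed in *Cxcr4* and in *Cxcr3*, which was at 2.98 in CTL and 1.07 in Tumorigenic cells. Pre-tumorigenic cells went the other way from Activated, Migratory and follicular helper cells, with *Cxcr4* at 0.838 in TGFβR-KO and 0.341 in TGFβR-WT, where the larger set was at 0.768 and the smaller, with 3 UMIs, at 0.149.

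Among groups of at least 20 cells, *Ccr2* was found most often in Activated cells of TGFβR-WT, at 14.5% (8.70 to 22.2), and in TGFβR-KO in Tumorigenic cells at 10.5% (7.56 to 14.2), Migratory cells at 9.99% (8.03 to 12.2) and Activated cells at 9.12% (6.19 to 12.8), whose intervals overlap. It was nearly absent from follicular helper cells. No TR-TFH cell of TGFβR-WT held it (0 of 460, which allows a share of up to 0.652%), nor did one of TGFβR-CA (0 of 556, up to 0.540%), and 2 of 519 did in TGFβR-KO. What free RNA added to the shares of *Ccr2* was not tested.

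**Figure D2:**
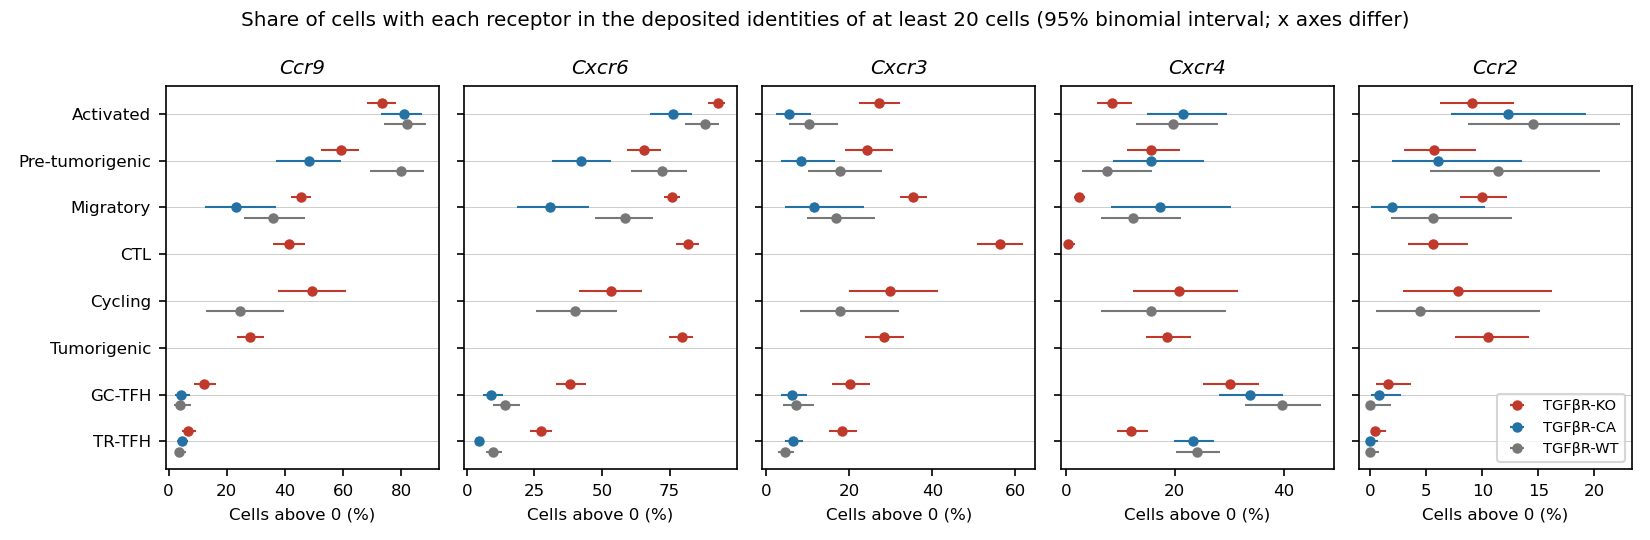
Share of cells above 0 (percent, points, with 95% Clopper-Pearson intervals as lines) for each receptor in the 8 deposited identities, with TGFβR-KO, TGFβR-CA and TGFβR-WT side by side. Groups under 20 cells are left out, and the x axes differ. *Ccr9* falls from 82.1% in Activated to 3.70% in TR-TFH cells of TGFβR-WT, *Cxcr3* peaks at 56.4% in CTL cells, and *Cxcr4* runs from 39.7% in GC-TFH cells of TGFβR-WT to 0.312% in CTL cells of TGFβR-KO.

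By the fold against both TGFβR-WT sets, *Cxcr6* and *Cxcr3* were called higher in TR-TFH cells of TGFβR-KO, where 1.29% of genes past the filter were, and *Cxcr4* lower, where 7.55% were. In GC-TFH cells *Ccr9*, *Cxcr6* and *Cxcr3* were called higher, where 2.22% of genes were, and *Cxcr4* lower, where 4.45% were. In Activated cells *Cxcr3* was called higher, where 3.34% of genes were, and *Cxcr4* and *Ccr2* lower, where 7.02% were. In Pre-tumorigenic cells *Ccr9* was called lower, where 8.73% of genes were, and 0 receptors higher, where 5.16% were. *Ccr2* passed the fold there too, TGFβR-KO being lower, but with 15 UMIs in TGFβR-KO and 9 in TGFβR-WT it was under the filter. Some of these receptors reached 50 UMIs only through TGFβR-KO, so that their calls add nothing to the levels themselves. This held for *Cxcr3* in all 4 identities, with 24 TGFβR-WT UMIs in TR-TFH, 23 in GC-TFH, 17 in Activated and 26 in Pre-tumorigenic cells. It also held for *Ccr9* in GC-TFH cells, with 17, and for *Cxcr4* and *Ccr2* in Activated cells, with 39 and 20. Of receptors not called, it held for *Cxcr4* in Pre-tumorigenic cells, with 10, and *Ccr9* in TR-TFH cells, with 37. *Cxcr6* passed the filter on the TGFβR-WT cells alone in both follicular helper identities, with 68 and 55 UMIs. *Cxcr3* was above both TGFβR-WT sets and *Cxcr4* below them in Activated, GC-TFH and TR-TFH cells, but neither was called in Pre-tumorigenic cells, whereas *Cxcr6* passed the fold in the follicular helper identities and not in Activated cells, where it was 1.16 and 1.79 times as high as in the 2 TGFβR-WT sets.

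For TGFβR-CA the calls were fewer. In GC-TFH cells *Cxcr6* and *Cxcr4*, the 2 tested, were both called lower, against 3.31% of genes, and 2.43% of genes were higher. In TR-TFH cells *Cxcr3* was called higher, where 1.65% of genes were, with levels of 0.252 in TGFβR-CA and 0.145 in TGFβR-WT, and it passed the filter only through TGFβR-CA. There 0 receptors were lower, against 3.62% of genes. In Pre-tumorigenic cells *Cxcr6* was called lower, where 6.95% of genes were, and 0 receptors higher, where 3.31% were. *Cxcr3* and *Ccr2* were lower by the fold there but under the filter, with 8 and 6 UMIs in TGFβR-CA. In Activated cells 0 of 3 were called in either direction, where 2.13% of genes were higher and 4.47% lower. *Cxcr6* was at a lower level in TGFβR-CA than in pooled TGFβR-WT cells in Activated, Pre-tumorigenic, Migratory, GC-TFH and TR-TFH cells, with TGFβR-WT 1.59, 2.73, 3.17, 2.13 and 2.42 times as high. The smaller set alone was only 1.14 times as high in Activated and 1.33 times in TR-TFH cells.

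Levels were also averaged over the 8 identities with the same weights in each condition, namely each identity's share of all cells. *Cxcr6* was then 1.64 times and *Cxcr3* 1.78 times as high in TGFβR-KO as in TGFβR-WT, both below the ratios of 2.22 and 3.41 over all cells. *Cxcr4* was 2.15 times as high in TGFβR-WT as in TGFβR-KO, against 2.65 over all cells. *Ccr9* was 1.47 times as high in TGFβR-WT as in TGFβR-KO, and *Ccr2*, higher in TGFβR-KO over all cells, became 1.79 times as high in TGFβR-WT. In TGFβR-WT and TGFβR-CA these averages rest on the few CTL and Tumorigenic cells given above. Over the 5 identities with at least 20 cells in every condition, *Cxcr6* was 1.44 times as high in TGFβR-KO, which no longer passed the fold, and *Cxcr3* 2.56 times, *Ccr2* was level at a log2 ratio of 0.00064, and TGFβR-WT was 2.05 times as high in *Cxcr4* and 1.52 times in *Ccr9*.

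The next question was whether single cells carried several receptors. Of TGFβR-KO cells 17.7% had none of the 5, 32.5% had 1, 34.2% had 2 and 13.9% had 3. Of TGFβR-WT cells 42.0% had none, 32.9% had 1, 17.5% had 2 and 7.05% had 3. TGFβR-CA cells were the barest, with 52.1% at none. The identities differed as widely: 1.71% of Activated cells of TGFβR-WT and 0.943% of those of TGFβR-KO had none, whereas 63.3% and 50.5% of TR-TFH cells did. Tumorigenic cells of TGFβR-KO had none in 5.54%, 1 in 41.8% and 2 in 37.4%, and CTL cells 6.23%, 26.5% and 43.6%.

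Combinations differed between the conditions. In TGFβR-KO the most frequent were *Cxcr6* alone (18.5% of cells), none (17.7%), *Ccr9* with *Cxcr6* (17.1%), *Cxcr6* with *Cxcr3* (10.4%) and *Ccr9*, *Cxcr6* and *Cxcr3* together (8.44%). In TGFβR-WT they were none (42.0%), *Cxcr4* alone (17.2%), *Ccr9* with *Cxcr6* (11.02%), *Cxcr6* alone (8.74%) and *Ccr9* alone (3.57%). In TGFβR-CA, *Cxcr4* alone (17.9%) and *Ccr9* with *Cxcr6* (8.20%) followed none. *Ccr9*, *Cxcr6* and *Cxcr3* together were found in 2.38% of TGFβR-WT cells.

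**Figure D3:**
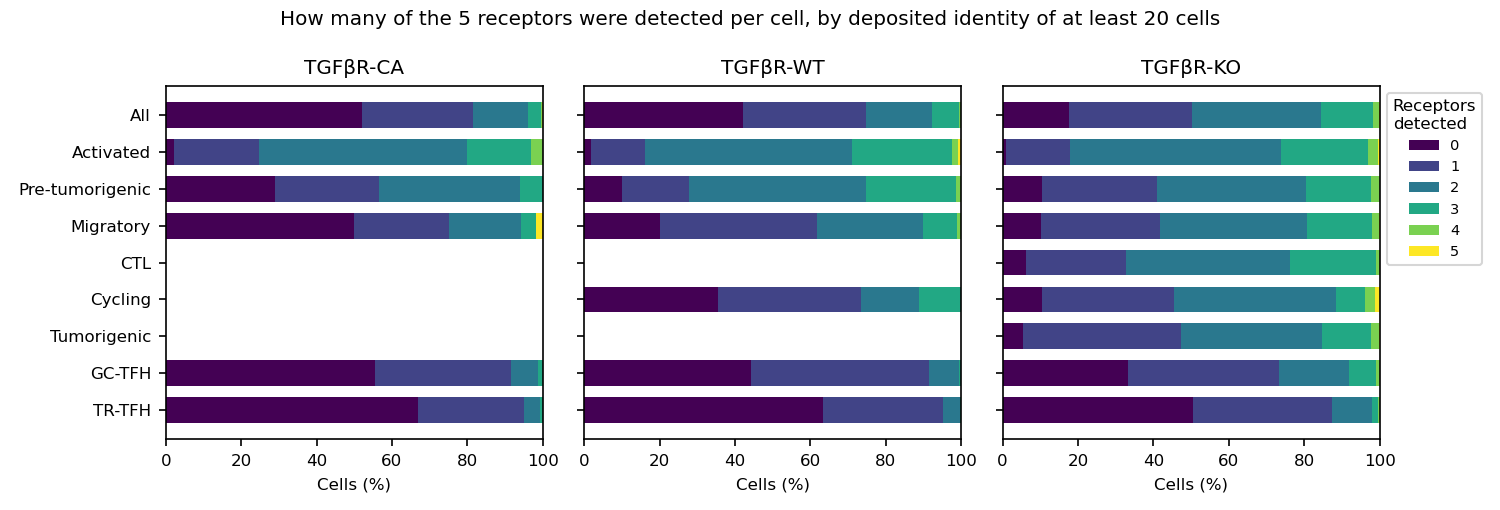
Number of the 5 receptors with at least 1 corrected UMI per cell, from 0 to 5, as percent of the cells of each identity (stacked bars) in TGFβR-CA, TGFβR-WT and TGFβR-KO. Identities under 20 cells in a condition have no bar. None was detected in 52.1% of TGFβR-CA, 42.0% of TGFβR-WT and 17.7% of TGFβR-KO cells, and in under 3% of Activated cells in every condition.

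Co-detection of each of the 10 pairs was compared with the number expected if the 2 receptors were independent within every identity. *Ccr9* and *Cxcr6* were found together in 891 TGFβR-KO cells (29.9%, 28.3 to 31.6), 179 TGFβR-WT cells (17.8%, 15.5 to 20.3) and 124 TGFβR-CA cells (11.3%, 9.48 to 13.3). Of cells with *Ccr9*, 81.4%, 75.2% and 62.3% also carried *Cxcr6*. The ratio to expectation was 1.08, 1.104 and 1.16, so that most of the overlap was expected from the identities. Without regard to identity it was 1.25, 2.42 and 3.29.

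Of the remaining pairs in TGFβR-KO, *Cxcr6* and *Cxcr3* met in 669 cells (ratio 1.06) and *Ccr9* and *Cxcr3* in 351 (0.977), close to expectation. *Ccr2* was found with *Cxcr3* in 77 (1.20) and with *Cxcr4* in 21 (1.27). *Cxcr4* met *Ccr9* less often than expected, in 69 cells against 92.7 in TGFβR-KO (ratio 0.744) and 33 in TGFβR-CA (0.808) but 35 in TGFβR-WT at 0.936. *Cxcr3* and *Cxcr4* met in 9 TGFβR-WT cells against 17.3 expected (ratio 0.520). This came from the larger set, with 3 against 10.2 (0.293), and in the smaller set there were 6 against 6.94 (0.864). Of cells with *Ccr2*, 84.5%, 86.8% and 76.0% also carried *Cxcr6* in TGFβR-KO, TGFβR-WT and TGFβR-CA, respectively, at ratios of 1.099, 1.19 and 1.25.

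**Figure D4:**
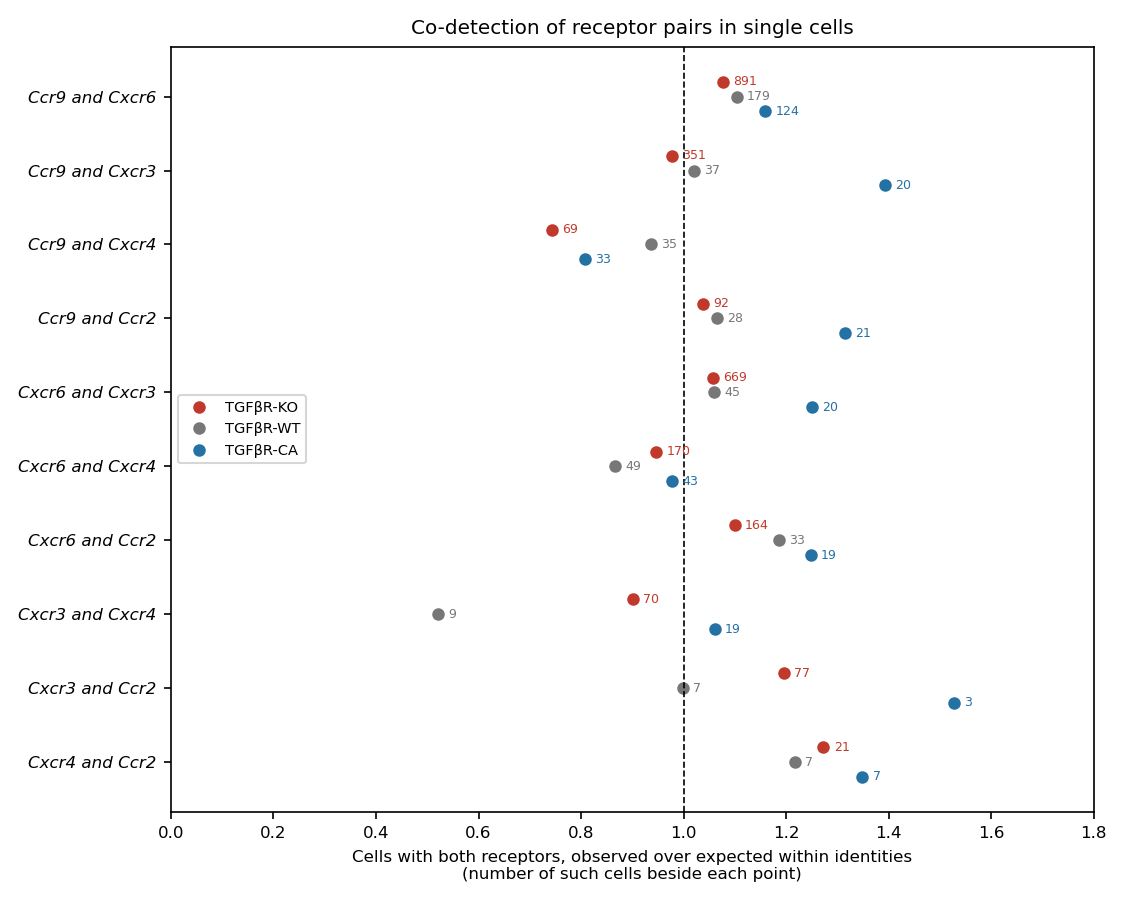
Cells with both receptors of a pair, as observed number over the number expected from the shares within identities (x axis, dashed line at 1), for TGFβR-KO, TGFβR-WT and TGFβR-CA. The number beside each point is the count of cells with both. *Ccr9* and *Cxcr6* in TGFβR-KO lie near 1, with 891 cells at 1.08, *Ccr9* and *Cxcr4* in TGFβR-KO lie at 0.744 with 69 cells, and *Cxcr3* and *Cxcr4* in TGFβR-WT at 0.520 with 9 cells.

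The effector genes found with the receptors in TGFβR-KO were examined in the same way. *Il17a*, the TH17 cytokine that drove the reporter, was in 11.97% of cells with *Ccr9* and 4.31% of those without (131 cells, ratio 1.38), but in 4.11% of cells with *Cxcr3* and 8.44% of those without (37 cells, ratio 0.651). *Il17f*, the related cytokine, gave ratios of 1.32 with *Ccr9* (94 cells) and 0.662 with *Cxcr3* (28 cells). *Gzma*, encoding a granzyme of cytotoxic granules, gave 1.41 with *Ccr9* (126 cells) and 0.737 with *Cxcr3* (60 cells), and *Gzmb* 1.29 (202 cells) and 0.883 (117 cells). *Ccr9* and *Cxcr3* cells thus lay on opposite sides of expectation for these 4 genes, out of 13 effector genes listed. *Il22* and *Nkg7*, also listed, are not described here. The smallest counts, 28 and 37 cells, come from 1 sample. *Ifng*, the TH1 cytokine, was near expectation with both, at 1.02 (353 cells) and 1.01 (267 cells), as was *Ccl5*, a chemokine of effector T cells, at 0.949 (299 cells) and 1.06 (327 cells). In TGFβR-WT, *Il17a* was in 44.1% of cells with *Ccr9* (105 cells, ratio 1.13) and in 15.1% of cells with *Cxcr3* (14 cells, ratio 0.760). These values pool the TGFβR-WT sets, in which *Il17a* was at 1.29 (larger) and 5.73 (smaller). The expectation was not taken within the sets, so these ratios also hold differences between them.

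Other chemokine and guidance receptors were read beside the 5. The filter of 200 UMIs in this and the following lists counts TGFβR-KO cells, which are most of the table. Of the genes named from these lists, *Gpr18*, *Ccr7*, *Itgae*, *Cxcl10*, *Tbx21* and *Zeb2* passed it only through them. They had 95, 187, 153, 77, 38 and 82 UMIs outside TGFβR-KO. *Ccr2*, with 73, did so too. Of the 5256 genes of the whole table that passed the filter without TGFβR-KO cells, 95 were called higher and 296 lower in TGFβR-KO. In TGFβR-CA 42 of them were called higher and 92 lower. Of 22 listed, 15 were in the table and 8 passed the filter of 200 UMIs, of which 1 was called higher and 3 lower in TGFβR-KO, and 0 in TGFβR-CA. Of the 6 that passed it without TGFβR-KO cells, 0 were higher and 2 lower in TGFβR-KO. *Gpr18*, a receptor linked to T cells of the gut epithelium, was higher, at 0.402 in TGFβR-KO against 0.152 and 0.0907 in the larger and smaller TGFβR-WT sets. *Cxcr5*, the receptor that brings T cells into follicles, was lower, at 0.302 against 0.946 and 1.19, as was *Ccr7*, the lymph node homing receptor, at 0.110 against 0.247 and 0.256. *Ccr1*, a receptor for inflammatory chemokines, was at 0.0287 against 0.215 and 0.437. *Ccr6*, the TH17 receptor for CCL20, was not called, at 1.66 against 1.42 and 2.05. The median log2 ratio over the 8 was -0.36 in TGFβR-KO. Over the 5 gut receptors it was 0.72, which is the value of *Ccr2*. That receptor was not called, and its ratio became level or reversed with the identity makeup held equal. *Cxcr5* was also scarce in cells with *Ccr9*, with 21 such cells in TGFβR-KO (ratio 0.637) and 7 in TGFβR-WT (0.477).

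Of the 9 adhesion and retention genes that passed the filter, 1 was called higher in TGFβR-KO and 0 lower. *Selplg*, which encodes the selectin ligand PSGL-1, was at 2.67 in TGFβR-KO and at 1.61 and 1.20 in the TGFβR-WT sets. *Itga4* and *Itgb7*, whose products form the gut-homing integrin α4β7, were not called: *Itga4* was at 3.83 against 4.06 and 2.79, and *Itgb7* at 4.34 against 2.93 and 4.34. In TGFβR-CA *Itgae*, the αE chain that binds E-cadherin, named after its values were seen, was called lower, at 0.0844 against 0.156 and 0.635. Of the 8 genes that passed the filter without TGFβR-KO cells, 0 were called lower in TGFβR-CA. The median log2 ratio of the 9 genes was 0.07 in TGFβR-KO and -0.48 in TGFβR-CA.

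Of 13 genes of receptor signaling and desensitization past the filter, 0 were called higher and 2 lower in TGFβR-KO, both regulators of G-protein signaling. *Rgs10* was at 2.48 against 8.42 and 11.5, and *Rgs16*, named because it was called, at 0.0618 against 0.235 and 0.181. *Gnai2*, the inhibitory G-protein subunit through which these receptors signal, was at 4.74 against 5.51 and 5.94 and was not called. In TGFβR-CA 0 of the 13 were called. The median log2 ratios were -0.20 and -0.07, close to those over all genes.

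Of 15 regulators past the filter, 4 were called higher and 1 lower in TGFβR-KO, and 1 higher and 2 lower in TGFβR-CA. Of the 13 that passed it without TGFβR-KO cells, 2 were higher and 1 lower in TGFβR-KO. *Klf2*, a factor for T cell circulation, was at 6.50 in TGFβR-KO against 1.84 and 1.11, and *Rora*, a TH17 nuclear receptor, at 5.66 against 3.19 and 2.70. *Tbx21*, encoding the TH1 factor T-BET, and *Zeb2*, a factor of terminal effector cells, both named because they were called, were at 0.287 against 0.0519 and 0.0577 and at 0.222 against 0.144 and 0.0495. *Maf*, a factor of TH17 and follicular helper cells, was lower, at 12.7 against 24.1 and 20.5. *Runx3*, a factor of cytotoxic and TH1 cells, was at 1.91 in TGFβR-KO against 1.06 and 1.41 and missed the fold, and was called lower in TGFβR-CA at 0.653. *Rora* was lower too in TGFβR-CA, at 1.77, and *Hif1a*, the hypoxia factor, higher at 1.33 against 0.742 and 0.536. Of 12 effector genes past the filter 9 were called higher and 1 lower in TGFβR-KO, and 0 higher and 6 lower in TGFβR-CA. Of the 10 that passed the filter without TGFβR-KO cells, 7 were higher and 1 lower in TGFβR-KO. Of 10 ligands of the 5 receptors listed, 3 were in the table and 1 passed the filter, *Cxcl10*, at 0.239 in TGFβR-KO and 0.128 in the larger set, with none in the smaller set.

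Among the neighbors of the chromosome 9 genes, of 5 that passed the filter, 0 were called higher and 1, *Ccr1*, lower in TGFβR-KO, with TGFβR-WT 10.0 times as high, and 0 were called in TGFβR-CA. Their median log2 ratio in TGFβR-KO was -0.36, against -0.17 over all genes. Across 19 groups of 1 identity in 1 condition with at least 20 cells, *Ccr9* and *Lztfl1* log2 levels had a Pearson correlation of 0.88. *Lztfl1* overlaps the GENCODE span of *Ccr9* on the other strand. In RefSeq they do not overlap, as *Lztfl1* ends at 123717625 and *Ccr9* starts at 123767211. Other correlations of *Ccr9* were 0.31 with *Fyco1*, 0.15 with *Sacm1l* and 0.18 with *Limd1*. *Cxcr6*, inside *Fyco1*, had 0.24 with it. How reads of *Ccr9* and *Lztfl1* were kept apart in counting is not given in the sources used here, and its part in their correlation was not tested.

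Over the same 19 groups, which share libraries and were clustered on these genes, *Ccr9*, *Cxcr6* and *Ccr2* varied together, with correlations of 0.84 for *Ccr9* and *Cxcr6*, 0.91 for *Ccr9* and *Ccr2* and 0.90 for *Cxcr6* and *Ccr2*. *Cxcr3* was nearest to *Cxcr6*, at 0.64, and *Cxcr4* was opposite to all, from -0.71 with *Cxcr3* to -0.40 with *Ccr2*. The 3 genes most like each receptor over all genes past the filter were *Atxn1* (0.94), *Ccr2* (0.91) and *Gm20069* (0.91) for *Ccr9*, and *Sugt1* (0.93), *Ppp3ca* (0.93) and *Actn2* (0.92) for *Cxcr6*. For *Cxcr3* they were *Cd7* (0.91), *H2-Q7* (0.89) and *Atp8a2* (0.87), and for *Cxcr4* *Tox2* (0.88), *Il21* (0.81) and *Ivns1abp* (0.80). For *Ccr2* they were *Atxn1* (0.92), *Stk24* (0.92) and *Lamc1* (0.92). Within the 8 groups of TGFβR-KO alone, *Atxn1* was again among the 3 most like *Ccr9*, and 0 of the 3 recurred for the other receptors.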

How the data were processed

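The authors sorted the cells and prepared droplet libraries on a 10x Genomics Chromium controller. They counted UMIs against mm10 with Cell Ranger 3.1.0 (submitters' processing notes), filtered cells on detected genes and mitochondrial share, normalized with SCTransform in Seurat, integrated and clustered them, and took out epithelial and γδ T cells. The deposited table holds the natural log (ln) of 1 plus the corrected UMI number that the authors computed, for 13265 genes in 5080 cells. Undoing the log gave whole numbers within 1e-06 for all 7880276 values above 0. These are corrected numbers, to which a count model was not applied, and the correction removes the original depth of a cell, so that a share of cells above 0 is that of corrected UMIs.

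Cells were grouped by the identity deposited for each and by condition, read from the prefix of the cell name: WT, RCA for TGFβR-CA, and R for TGFβR-KO, which has as many cells as the methods give for that condition. The suffix of the name split TGFβR-WT cells into 2 sets that no label ties to its 2 samples. All cells were kept. Scrublet in scanpy 1.11.5 called 17 of 5080 cells doublets (0.335%), too few to be taken as a working call, so a further alternative left out the 5% of cells with the most detected genes in each set (256 cells). Shares have Clopper-Pearson 95% intervals, and a share of 0 has the limit given by 3 counts. Likeness between genes was Pearson's correlation of log2(level + 0.1 per 10000). The named genes are the 5 receptors, at most 8 genes of each list by their level over all cells, the 3 genes most like each receptor, and others where stated. The members and all gene and marker lists were chosen with earlier results of these data known. Alternatives changed the TGFβR-WT set, the scale, the identity weights, the cells kept, the detection limit, the depth (thinning left out 0 cells), the pseudocount and the filters. Steps were tested on simulated data. Python 3.11.15, numpy 2.4.6, scipy 1.17.1, pandas 2.3.3 and matplotlib 3.10.9 were used. Gene positions come from GENCODE M21, and promoters from RefSeq. Genes of the lists that are outside the table were not analysed here.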

Additional observations from a re-analysis of the deposited data

Results flagged for a closer look

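The ratio of TGFβR-KO to TGFβR-WT for *Ccr9* went in opposite directions in 2 identities. In GC-TFH cells TGFβR-KO was at 0.585, above both TGFβR-WT sets at 0.218 and 0.248 UMIs per 10000, and in Pre-tumorigenic cells it was at 4.25, below both at 7.25 and 13.8. The log2 ratios to pooled TGFβR-WT cells were 1.36 and -1.47, a difference of 2.83, which was not tested because TGFβR-KO rests on 1 sample. In GC-TFH cells the TGFβR-WT level rests on 17 UMIs, 11 of them from the larger set, and *Ccr9* reached the 50 UMIs needed for a call there only through TGFβR-KO.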

How the results depend on the processing

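With each TGFβR-WT set left out in turn, log2 ratios of TGFβR-KO to TGFβR-WT ranged from -0.58 to 0.15 for *Ccr9*, which was positive without the smaller set, from 1.13 to 1.20 for *Cxcr6*, from 1.52 to 1.91 for *Cxcr3*, from -1.79 to -1.17 for *Cxcr4* and from 0.53 to 0.82 for *Ccr2*. Those of TGFβR-CA ranged from -0.88 to -0.15 for *Ccr9*, from -1.10 to -1.03 for *Cxcr6*, from -0.80 to -0.42 for *Cxcr3*, from -0.70 to -0.09 for *Cxcr4* and from -0.95 to -0.65 for *Ccr2*. As a difference of mean ln values, *Ccr9* in TGFβR-KO was 0.0913 above TGFβR-WT. With the identity makeup held equal, the log2 ratio for TGFβR-KO became 0.71 for *Cxcr6*, 0.83 for *Cxcr3* and -0.84 for *Ccr2*, which reversed, and for TGFβR-CA -0.68 for *Cxcr6*, -1.06 for *Cxcr3* and -1.80 for *Ccr2*. Over the 5 identities with at least 20 cells in every condition, an alternative chosen after seeing the data, as were leaving out small identities and using TGFβR-KO groups alone for likeness, those for TGFβR-KO were 0.53 for *Cxcr6*, 1.36 for *Cxcr3* and 0.00064 for *Ccr2*. Without the 5% of cells with the most genes, *Ccr2* in TGFβR-CA was at -1.05. Over the 8 alternatives on the log2 scale, *Cxcr6*, *Cxcr3* and *Cxcr4* kept their direction in both conditions. The cause of these moves was not tested.

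With the expectation taken over all cells, co-detection of *Ccr9* and *Cxcr6* was 1.25 times the expected number for TGFβR-KO, 2.42 times for TGFβR-WT and 3.29 times for TGFβR-CA. Genes called higher and lower in TGFβR-KO numbered 1889 and 904 with no filter on UMIs, against 220 and 407. With 0.1 added per 10000, 204 were lower, and against the pooled TGFβR-WT cells 787 were. For TGFβR-CA, where 94 were higher and 206 lower, no filter gave 1087 and 510, the pseudocount 36 and 65, and the pooled cells 184 and 540. No paired analysis was possible because only 1 sample represents TGFβR-KO, likewise TGFβR-CA, and cell names do not tell the TGFβR-WT samples apart. *Ccr2*, with 292 UMIs in all, is limited most by depth.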
